A study of Mus musculus with 8 samples.

Results

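miR-103 and miR-107 (mmu-miR-103 and mmu-miR-107 on the array) are 2 of the 567 mouse miRNAs on the array, chosen by name: every non-control spot that carries either name was used. Together they had 4 of the 1672 mouse probes and 40 spots per array. Levels were measured in skeletal muscle on 8 1-colour arrays, 4 labelled control and 4 labelled diabetic. The design text describes the obese diabetic mice as C57BL/KsJ db/db, which lack a working leptin receptor, and the controls as C57BL/KsJ db+. The strain entries of the samples name the opposite genotypes, so the groups here follow the titles, descriptions and group entries, and each difference is diabetic minus control. The age, sex and particular muscle of the mice are not given in the sources used here. Nothing in the labels says that arrays of a group came from separate animals, so p-values measure the spread between these samples, which may be technical. The control arrays filled slide row 1 and the diabetic arrays slide row 2, so slide row and group cannot be told apart.

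A miRNA is cut from a hairpin transcript, loaded into an Argonaute protein and guided to mRNAs mainly by its seed, bases 2 to 8 from its 5′ end. miR-103 and miR-107 lie in genes of pantothenate kinases, the enzymes that start coenzyme A synthesis. They are known as regulators of insulin sensitivity in liver and fat, where caveolin-1 is a described target, and they also repress Dicer.

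The mature sequences are shown because the members differ so little that an array has to tell them apart by very few bases. They are given 5′ to 3′ from RefSeq (GRCm38.p6), with the seed in capitals. Both members matched an entry.
miR-103-3p: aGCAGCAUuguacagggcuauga
miR-107-3p: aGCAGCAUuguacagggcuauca
The members were identical at 22 of 23 bases and shared the seed. The single difference was G22C, counted from the 5′ end of miR-103 with the base of miR-103 first. Probe sequences were not used here, and how far a probe of one member also binds the other was not tested.

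The hairpins are shown because miR-103 has more than one gene behind its array signal. The mature strand is in capitals.
Mir103-1: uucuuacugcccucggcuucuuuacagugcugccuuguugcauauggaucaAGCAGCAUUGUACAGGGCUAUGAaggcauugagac
Mir103-2: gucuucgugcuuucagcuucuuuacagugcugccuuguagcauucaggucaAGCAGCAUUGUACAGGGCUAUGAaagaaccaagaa
Mir107: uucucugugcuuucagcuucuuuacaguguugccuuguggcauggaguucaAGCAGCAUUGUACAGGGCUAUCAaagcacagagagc
In RefSeq (GRCm38.p6) Mir103-1 lies at chr11:35782396-35782481 on the plus strand, within Pank3. Mir103-2 lies at chr2:131288052-131288137 on the plus strand, within Pank2. Mir107 lies at chr19:34820687-34820773 on the minus strand, within Pank1. Each hairpin is on the strand of its pantothenate kinase gene. The mature strand of Mir103-1 and Mir103-2 is the same, so the miR-103 level is a sum over both genes. The array was designed on another build (mm9), and its values carry no coordinates.

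Both members were detected on all 8 arrays. Neither passed the test between the groups: 0 of the 2 were called, where limma called 4.76% of the 126 tested miRNAs, all of them higher on the diabetic arrays and 0% lower. Both had lower mean levels on the diabetic arrays. The control level was 1.30-fold that of the diabetic arrays for miR-107, with a 95% interval of 0.935 to 1.80. It was 1.21-fold for miR-103, with an interval of 0.814 to 1.79. Both intervals thus include no difference. For miR-107 the interval runs from levels in diabetic muscle 1.80-fold lower to 1.07-fold higher. For miR-103 it runs from 1.79-fold lower to 1.23-fold higher.

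The relative level of a miRNA is the mean of its probes after each array was divided by the 75th percentile of its values over the 152 probes that all arrays detected, as log2. For mmu-miR-107 it was −1.96, −2.46, −2.20 and −1.92 on control arrays 1 to 4. On diabetic arrays 1 to 4 it was −2.25, −2.67, −2.74 and −2.37. The groups overlapped: diabetic 1 and diabetic 4 lay above control 2, and all 4 diabetic arrays lay below the control mean. The mean was −2.13 ± 0.25 in controls and −2.51 ± 0.23 in diabetic samples (SD, n = 4 each). The log2 difference was −0.37 (SE 0.22, limma adjusted p = 0.441), and 23 of the 126 tested miRNAs had a more negative one.

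For mmu-miR-103 the relative log2 level was −1.57, −2.47, −2.52 and −1.96 on control arrays 1 to 4. It was −2.07, −2.59, −2.64 and −2.30 on diabetic arrays 1 to 4. The control arrays split into a high pair, control 1 and control 4, and a low pair that lay within the diabetic range. The mean was −2.13 ± 0.45 in controls and −2.40 ± 0.27 in diabetic samples (SD, n = 4 each). The log2 difference was −0.27 (SE 0.26, limma adjusted p = 0.699). Without control 1 it was −0.08 (limma adjusted p = 0.941), so most of the miR-103 difference rested on that array. That of miR-107 was −0.32 without control 1. The 126 tested miRNAs had a median difference of −0.06 on the log2 scale, and 54% of them (68) were below 0.

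**Figure D1:**
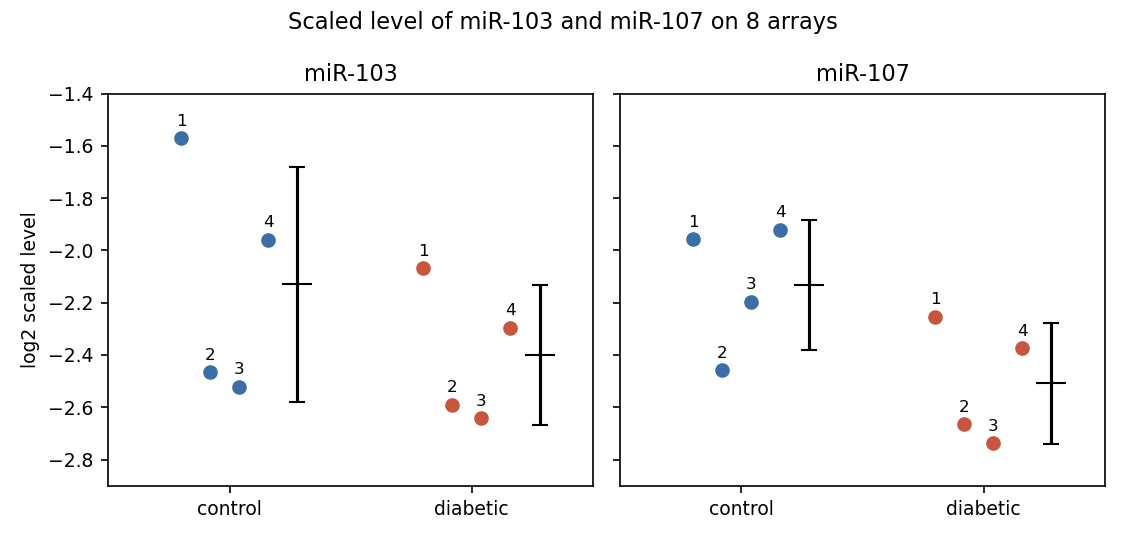
Relative log2 level of miR-103 (left) and miR-107 (right) on each array; points are numbered by replicate, and the bar beside each group is its mean ± SD (n = 4). The groups overlap for both miRNAs, and control 1 is the highest array for miR-103 at −1.57.

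The mean of both members per array was −2.13 ± 0.33 on control and −2.45 ± 0.25 on diabetic arrays (SD, n = 4 each). The difference was −0.32, with all 4 diabetic arrays below the control mean and 2 of them below the lowest control. A two-sided exact permutation test over 70 assignments gave p = 0.2, where the smallest possible p is 0.0286. Each slide column held a control and a diabetic array of the same number. Within columns 1 to 4 the difference of the mean of both was −0.40, −0.17, −0.33 and −0.39, below 0 in 4 of 4 columns, as was that of each member alone. A two-sided exact sign-flip test over the columns, an alternative chosen after seeing the data, gave p = 0.125. This is the smallest p that 4 columns allow, so the test could not pass the threshold whatever the values, and nothing is concluded from it. Replicate numbers were not taken to pair the arrays. Both members share each array's scale factor, so their signs are not independent. The share of all tested miRNAs below 0 in every column is not given here.

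Whether the near-identical members differed between the groups by different amounts was tested within arrays, where the scaling of an array cancels. The log2 level of miR-107 minus that of miR-103 was −0.39, 0.01, 0.32 and 0.04 on control arrays 1 to 4. On diabetic arrays 1 to 4 it was −0.19, −0.07, −0.10 and −0.08. The diabetic arrays all lay inside the control range, and their SD was 0.05 against 0.29 in controls (n = 4 each). Only changes of this contrast are read, because levels from different probes are not comparable.

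The contrast differed between the groups by −0.10, with a 95% interval of −0.47 to 0.26 (two-sided exact permutation p = 0.543). No difference between the members was detectable with 4 arrays a group. This does not show that they behave alike. The control values at either end set the sign and size. Without control 1 the difference was −0.23 (exact permutation p = 0.0286, the smallest possible), and without control 3 it was 0.0050 (p = 0.971).

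Each member was measured by a brighter and a dimmer probe with 10 spots each per array. Intensities in this paragraph are the scanner's processed values, after background subtraction and before scaling. The brighter miR-103 probe, A_54_P1341, gave 180.0, 200.8, 105.4 and 151.9 on control arrays 1 to 4. On diabetic arrays 1 to 4 it gave 152.6, 144.1, 118.5 and 81.5. The brighter miR-107 probe, A_54_P1420, gave 125.1, 177.5, 117.6 and 138.7 on the control arrays, and 118.1, 120.7, 101.3 and 68.6 on the diabetic arrays. Diabetic 4 was the dimmest array for both probes and control 2 the brightest. These were also the dimmest and the brightest array as a whole, with scale factors of 219.5 and 618.0, and the other 6 factors lay from 307.9 to 479.5.

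**Figure D2:**
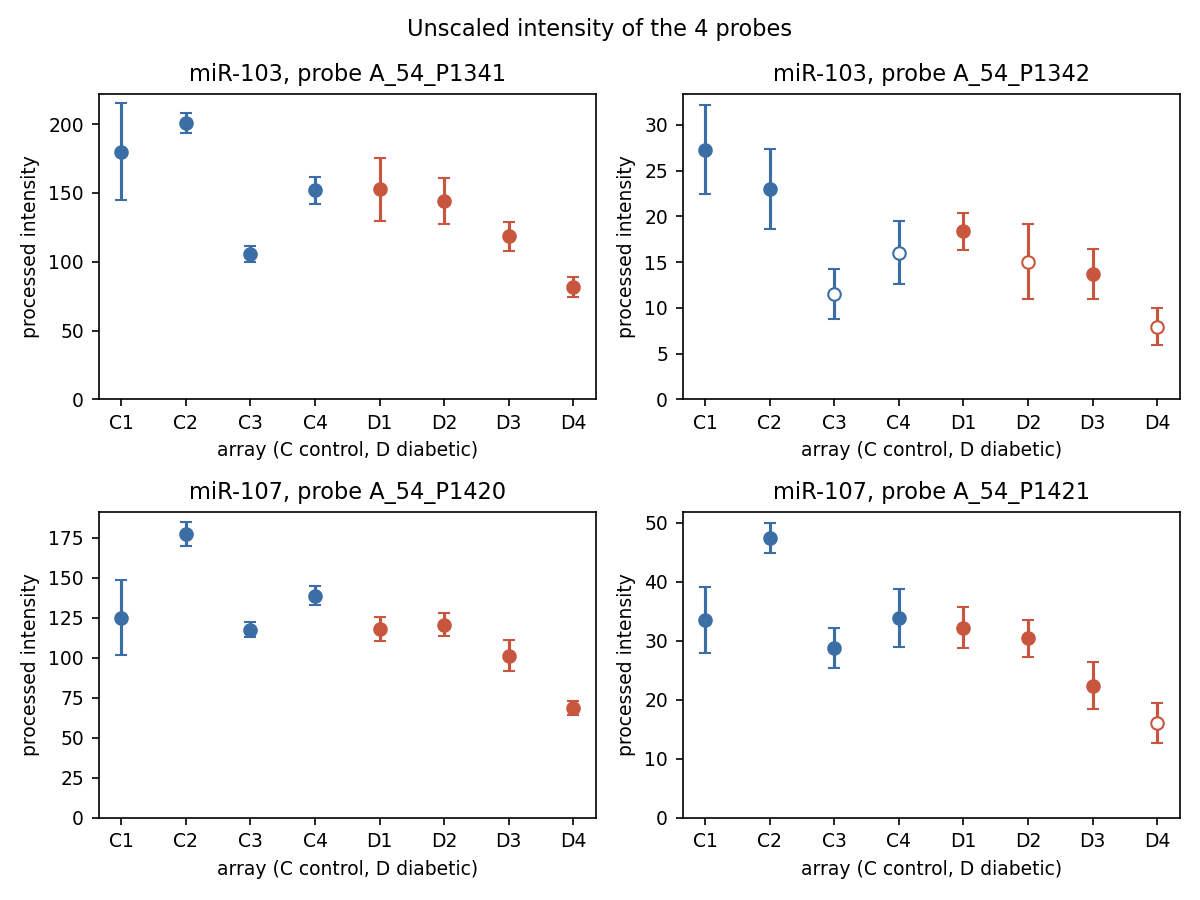
Processed intensity of the 4 probes before scaling, on control (C) and diabetic (D) arrays; points are means and bars the SD over the spots used, and open points were not detected. Control 2 is the brightest array for 3 of the 4 probes and diabetic 4 the dimmest for all 4.

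The probes of a member went the same way. The log2 difference was −0.26 (SE 0.25) for A_54_P1341 and −0.38 (SE 0.35) for the dimmer miR-103 probe, A_54_P1342. It was −0.36 (SE 0.17) for A_54_P1420 and −0.43 (SE 0.19) for the dimmer miR-107 probe, A_54_P1421. These errors come from the group SDs and no test was made. The dimmer miR-103 probe was detected on 4 of 8 arrays, with intensities from 7.92 to 27.3, and the dimmer miR-107 probe on 7 of 8, from 16.0 to 47.4. Both brighter probes were detected on all 8, so the calls of detection rest on them. Spots of a probe varied by a median CV of 9.0% for A_54_P1341 and 6.03% for A_54_P1420. For the dimmer probes it was 20.5% and 13.2%. The CV of both brighter probes was largest on control 1, at 19.6% for A_54_P1341 and 18.6% for A_54_P1420. None of their spots was dropped there, and those of A_54_P1341 read 98.8 to 213.6. None of the members' spots was saturated.

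The call for miR-107 depended on how arrays were scaled to each other. Divided by the median of the detected probes in place of their 75th percentile, miR-107 had levels of −0.76, −0.73, −0.86 and −0.76 on control arrays 1 to 4. On the diabetic arrays these levels were −1.05, −1.32, −1.25 and −1.17. All 4 diabetic arrays then lay below all 4 controls, as 9.52% of the 126 tested miRNAs did under this scaling and 0.794% under the 75th percentile. The control SD was 0.06, against 0.25 with the 75th percentile. The log2 difference was −0.42 (SE 0.10, limma adjusted p = 0.0455), and miR-107 was 1 of 2 miRNAs called lower, or 1.59% of those tested.

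Quantile normalization gave miR-107 a difference of −0.43 (SE 0.06, limma adjusted p = 0.00838), again with no overlap, where 4.76% of the tested miRNAs were so separated downward and 1.59% were called lower. The size of the difference thus moved little between these scalings and the 75th percentile, while its error fell. Scaling by the 75th percentile over all mouse probes, most of them undetected, gave −0.05 (SE 0.36, limma adjusted p = 0.932), where 7.14% were called in either direction. That scaling moved the median difference of all tested miRNAs from −0.06 to 0.26, so relative to that median miR-107 was still the lower. Unscaled, the difference was −0.48 (SE 0.30, limma adjusted p = 0.603), and 0% were called.

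miR-103 was called under none of these. Its log2 difference was −0.31 (SE 0.18, limma adjusted p = 0.316) when scaled by the median and −0.26 (SE 0.18, limma adjusted p = 0.440) with quantile normalization. Its sign turned with the percentile over all mouse probes, to 0.05 (SE 0.36, limma adjusted p = 0.932). With the median its control levels still ran from −1.19 on control 3 to −0.38 on control 1, and the groups overlapped. The SD of miR-103 was larger on the control than on the diabetic arrays under all 4 scalings, and 0.419 in both groups without scaling.

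**Figure D3:**
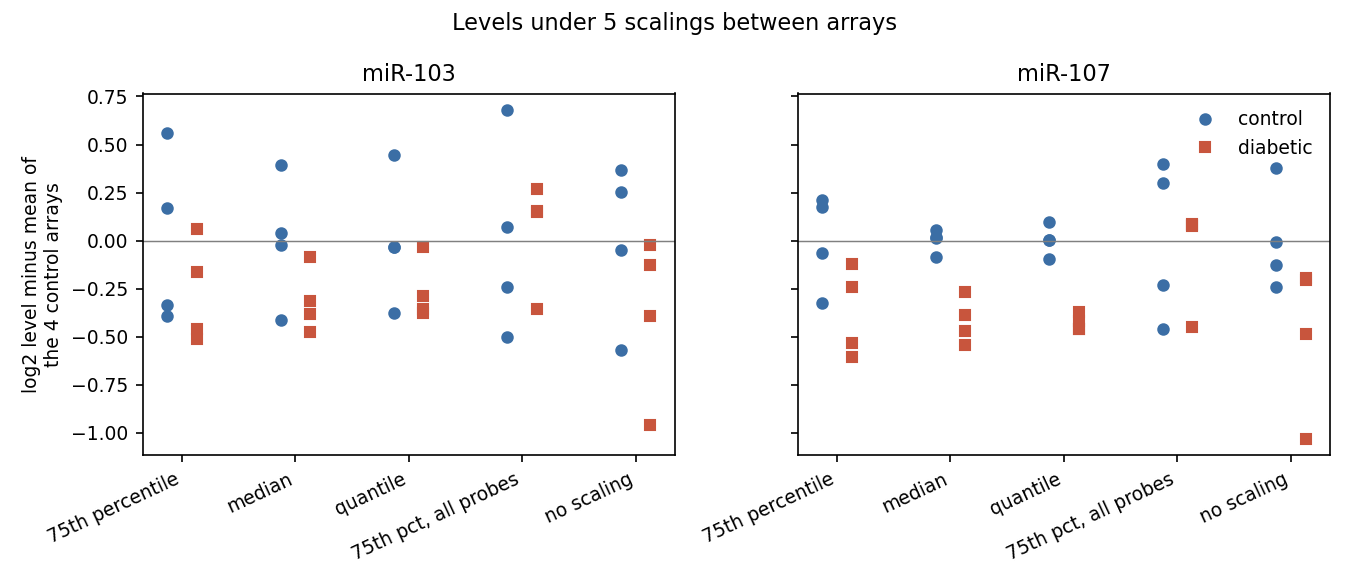
Log2 levels of miR-103 (left) and miR-107 (right) under 5 scalings between arrays, each point an array, set to 0 at the control mean of that scaling. For miR-107 the 4 controls close up and separate from the diabetic arrays with the median and with quantile normalization; for miR-103 control 1 stays high.

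Both differences were smaller under other treatments of the background. With raw median signals and no subtraction the log2 difference was −0.17 for miR-107 and −0.15 for miR-103 (limma adjusted p = 0.999 each). With normexp correction of the median signals (offset 50), an alternative chosen after seeing the data, it was −0.17 and −0.15 (limma adjusted p = 0.998 each). The shrinkage was not particular to the members. With raw median signals miR-15b was at −0.47, against −0.74 as reported, and miR-497 at −0.17, against −0.31. Over 23 alternatives the difference of miR-107 ran from −0.48 to −0.05 and passed in 2, while that of miR-103 ran from −0.40 to 0.05 and passed in 0.

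**Figure D4:**
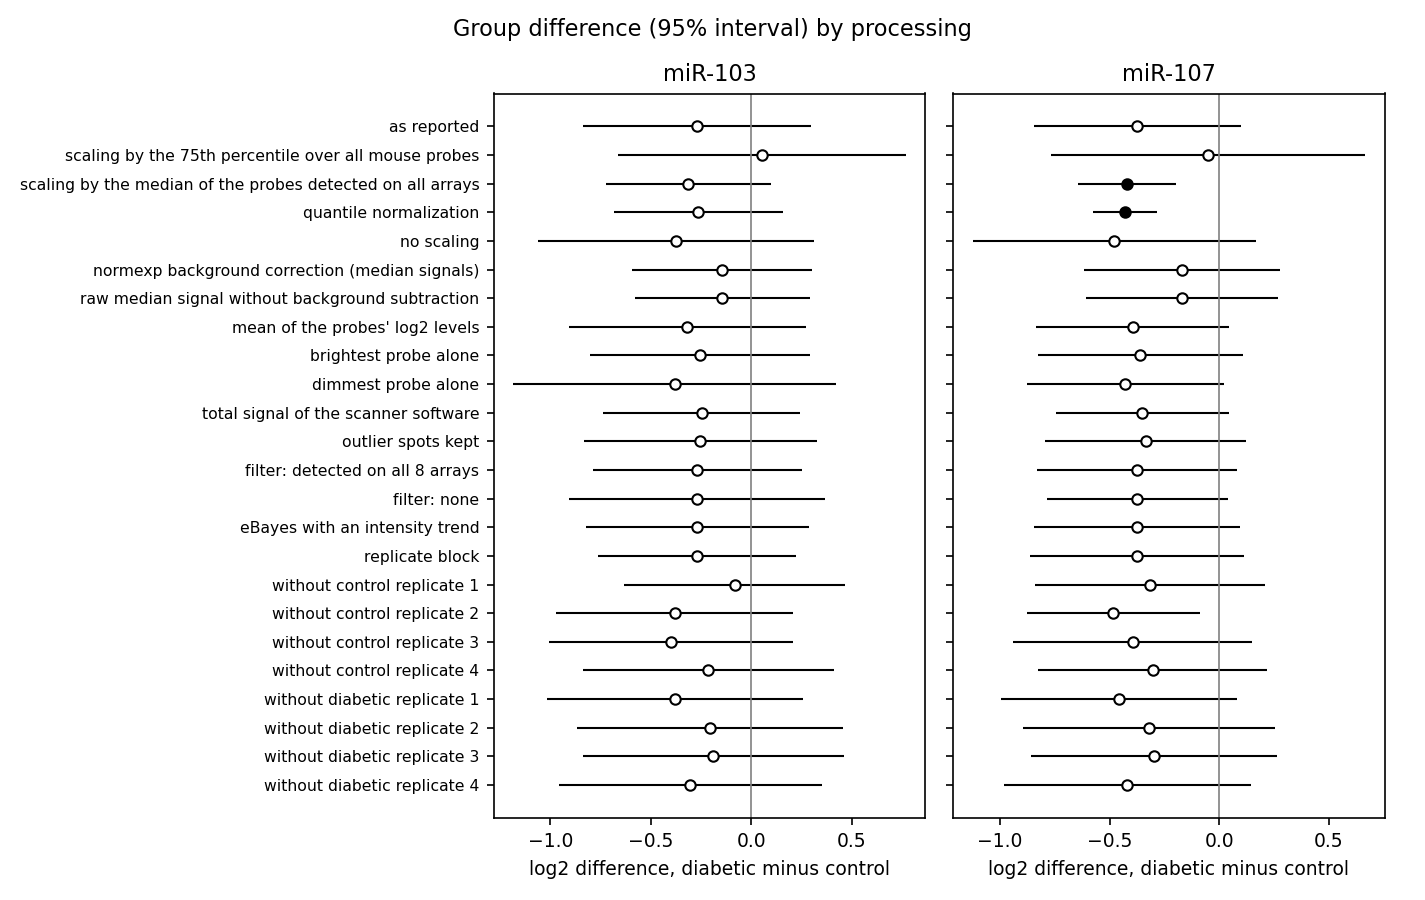
Log2 difference, diabetic minus control, of miR-103 (left) and miR-107 (right) with its 95% limma interval under each processing; filled points passed an adjusted p of 0.05. For miR-107 every point lies below 0 and 2 are filled; for miR-103 none is filled and 1 lies above 0.

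miR-103 and miR-107 belong to a wider group of miRNAs that carry the stretch AGCAGC at their 5′ end and include known brakes on the cell cycle such as miR-15a and miR-16. Their sequences are shown because the stretch is shifted by a base, which changes the seed (in capitals, from RefSeq, GRCm38.p6; names with a strand suffix are RefSeq's).
miR-15a-5p: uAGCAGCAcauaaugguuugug
miR-15b-5p: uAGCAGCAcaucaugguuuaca
miR-16-5p: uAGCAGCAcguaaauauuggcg
miR-195a-5p: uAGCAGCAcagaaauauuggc
miR-322-5p: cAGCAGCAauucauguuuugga
miR-497a-5p: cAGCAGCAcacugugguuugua
miR-503-5p: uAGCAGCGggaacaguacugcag
AGCAGC begins at base 1 in miR-103 and miR-107 and at base 2 in these 7. Aligned on that stretch, the first 6 or 7 bases were those of miR-103, and 7 to 9 bases were identical in all. The strand of each was taken as the one that starts with the stretch.

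Of the 9 listed members of this group besides miR-103 and miR-107, 7 were on the array and 6 were tested. miR-503 was not well above background on any array. By limma 0 of the 6 passed, and 1, miR-15b, was lower at an unadjusted p under 0.05, as 10.3% of the tested miRNAs were. Their median log2 difference was −0.10, against −0.06 over all tested miRNAs, and 5 of 6 were below 0.

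The exception was miR-15a, at 0.04 (SE 0.22). miR-15b, processed from a cluster with a miR-16 copy, was at −0.74 (SE 0.32, limma adjusted p = 0.260). Its levels were −1.61, −0.76, −2.32 and −1.93 on control arrays 1 to 4, and −2.33, −2.65, −2.66 and −1.92 on the diabetic arrays. Control 2 stood highest and diabetic 4 overlapped the controls; without control 2 the difference was −0.44. miR-16 was at −0.10 (SE 0.20), miR-195 at −0.08 (SE 0.20) and miR-322 at −0.10 (SE 0.21). miR-497, which shares a cluster with miR-195, was at −0.31 (SE 0.20, limma adjusted p = 0.526). The signs of miR-16, miR-195, miR-322 and miR-497 turned when undetected probes entered the percentile. No difference between the seeds was tested.

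**Figure D5:**
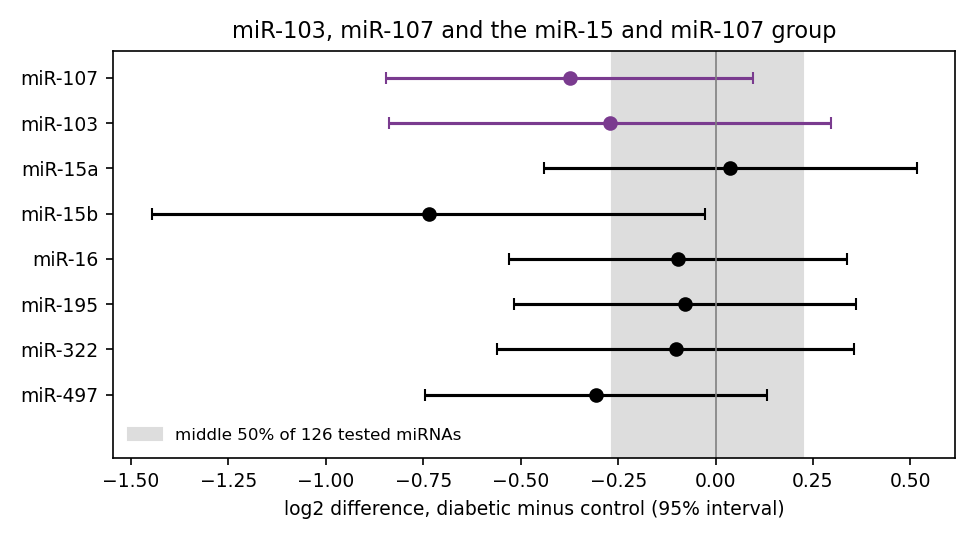
Log2 difference, diabetic minus control, with its 95% limma interval for miR-103, miR-107 and the 6 tested members of the miR-15 and miR-107 group; the grey band holds the middle 50% of the 126 tested miRNAs, from −0.27 to 0.23. miR-107 at −0.37, miR-497 at −0.31 and miR-15b at −0.74 lie left of the band, miR-103 at −0.27 lies on its left edge, and the other 4 lie inside it.

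Of 13 miRNAs linked to insulin action and glucose handling, 8 were tested. By limma 2 were called higher on the diabetic arrays and 0 called lower, against 4.76% and 0% of all tested. The list was chosen with earlier results of these data known, so this comparison is not a test of the list. The 2 called miRNAs were miR-29c and miR-29b, known to repress collagens, at 1.25 (SE 0.20, limma adjusted p = 0.00642) and 0.99 (SE 0.22, limma adjusted p = 0.0283). The median of the 8 was 0.21, and 3 of them were below 0. miR-223, abundant in myeloid cells, had the lowest difference at −1.29 (SE 0.62, limma adjusted p = 0.344). miR-33, miR-96, miR-375 and miR-802 were detected on 0 arrays.

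The array profiles most like those of the members are given as a description over the 8 arrays, which share each array's scale factor. Among 124 other tested miRNAs, the mean of both members correlated most with let-7e (Pearson r = 0.942), miR-500 (0.929), miR-125a-5p (0.910), miR-210 (0.905) and let-7b (0.897). The median over all was 0.434. miR-107 alone was most like let-7e (0.968), miR-497 (0.928) and miR-125a-5p (0.918). miR-103 alone was most like miR-212 (0.939), miR-500 (0.924) and miR-125b-5p (0.908). Low signal limits some of these: miR-212 was detected on 2 control and 2 diabetic arrays, and miR-125a-5p on 4 control and 2 diabetic arrays. The members correlated with each other at 0.841, which placed miR-107 at rank 12 among 125 for miR-103 and miR-103 at rank 9 for miR-107. Between 1 and 4 of the 5 most like miRNAs stayed under the alternatives.

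The skeletal muscle markers bore out the tissue label: miR-1, miR-133a, miR-133b and miR-206 were detected on all 8 arrays and miR-208b on 4, while miR-499 was detected on 0. Their summed linear level ran from 52.7 to 103.1 on control arrays, lowest on control 2, and from 77.9 to 106.7 on diabetic arrays. Of the 5 tested, 0 passed by limma, 2 were below 0 and 3 above. Those below 0 were miR-206 at −1.33 (SE 0.44, limma adjusted p = 0.132) and miR-208b at −0.53 (SE 0.54). miR-1 was at 0.34, miR-133a at 0.09 and miR-133b at 0.11. In a whole-muscle sample, fewer cells of a type and less RNA per cell cannot be told apart. All 3 stromal miRNAs measured had lower means on the diabetic arrays, with 0 called. Their summed level was 0.783, 0.482, 0.376 and 0.690 on control arrays 1 to 4 and 0.361 to 0.417 on the diabetic arrays. The high arrays, control 1 and control 4, are also the highest for both members. Among the controls, these arrays were also highest for the skeletal muscle sum, at 103.1 and 95.9, and for the liver sum, at 0.0846 and 0.203. A link to the members was not tested.

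Of the leukocyte markers, 3 of 6 were tested, and all 3 had lower means on the diabetic arrays, with 0 called. The level summed over all 6 was highest on control 2, at 2.10, and from 0.412 to 0.798 on the other controls. It was 0.241 to 0.699 on the diabetic arrays. The 3 tested markers did not share that peak: on control 2 the log2 level of miR-223 was its highest, at 0.79. There miR-155 was at its lowest, −5.71, near the floor of −5.95, and miR-342-3p was highest on control 1, at −2.85. The untested miR-142-3p and miR-142-5p were detected on 3 and 1 of the arrays. miR-150, a lymphocyte miRNA, was detected on 0 arrays. The erythroid sum was 1.54 to 2.75 on control and 1.03 to 1.99 on diabetic arrays. The adipocyte sum was 0.708 to 1.41 on control and 1.39 to 1.92 on diabetic arrays, with 1 of 4 tested members called higher, against 4.76% of all tested. The called member was miR-193, at 1.16 (SE 0.26, limma adjusted p = 0.0283). This list too was chosen with earlier results of these data known, so the comparison is not a test of it. The tested members not called were miR-143 at −0.03, miR-365 at 0.37 and miR-378 at 0.32. The endothelial sum was 1.60 to 2.67 and 1.80 to 2.47, and the liver sum 0.0637 to 0.203 and 0.0849 to 0.141, in the same order. Of these, miR-455, miR-126-5p and miR-194 were detected on 0 arrays. The part of these cell types in the levels of miR-103 and miR-107 was not tested.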

How the data were processed

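Total RNA (100 ng per array) was labelled with Cy3. Per the file headers, 1 slide carried all 8 arrays and was read in 1 scan with Feature Extraction 10.5.1.1. The deposited spot intensities are background-subtracted with spatial detrending and not normalized between arrays. The deposited files also hold raw median intensities, a total intensity per miRNA and flags of 0 or 1. The labels give no test.

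Outlier spots were dropped and spots averaged per probe. A probe was detected where at least 50% of its spots were well above background, and a miRNA where any of its probes was. Each array was divided by the 75th percentile of the 152 probes that every array detected; probes of a miRNA were averaged, raised to a floor of 0.0162 and converted to log2. The 126 miRNAs detected on at least 4 arrays were tested with limma 3.58.1 in R 4.3.3 (lmFit, eBayes, group alone; Benjamini-Hochberg, threshold 0.05). Single values had two-sided exact permutation tests. The fit was also run on simulated data in which each miRNA varied independently, which miRNAs that share an array's scale factor need not do. The number of arrays limits the precision.

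Named miRNAs were the members, the listed miR-15 and miR-107 group, called members of the insulin list and the most correlated miRNAs (5 for the mean of both, 3 for each member). Other listed miRNAs that the text names, among them miR-223, miR-206 and miR-193, were chosen after their values were seen. Members and lists were chosen with earlier results of these data known. Alternatives changed scaling, background, probe summary, filter, variance model, pairing and single arrays. Files hold no mean spot signal, so normexp (offset 50) used median signals.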

Additional observations from a re-analysis of the deposited data

How the results depend on the processing

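The log2 difference of miR-107 kept its negative sign in all 23 alternatives run and passed in 2, with quantile normalization (−0.43) and median scaling over detected probes (−0.42). That of miR-103 kept its sign in 22 and turned with the percentile over all mouse probes (0.053), which also turned the mean of both (0.00086); quantile normalization brought the mean of both past the threshold (−0.35, exact permutation p = 0.0286). Leaving out single arrays gave −0.48 to −0.30 for miR-107, −0.40 to −0.08 for miR-103, −0.43 to −0.20 for the mean of both and −0.23 to 0.0050 for miR-107 minus miR-103. Of the miR-15 and miR-107 group, the percentile over all mouse probes turned miR-16 (0.23), miR-195 (0.25), miR-322 (0.22) and miR-497 (0.018). miR-15a turned without scaling (−0.068), with quantile normalization (−0.051), with median scaling (−0.0071) and without control 1, and stayed positive without each of the other 7 arrays (−0.12 to 0.16 over all 8). The number of called miRNAs was 6 as reported, 0 without scaling, 2 without a filter, 3 with the dimmest probe (an alternative chosen after seeing the data), 10 with the brightest probe and 2 to 10 with single arrays left out. Except where stated above, the cause was not tested.

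Replicate numbers equal slide columns. Same-numbered arrays had correlations of deviations of 0.21, 0.08, 0.51 and −0.29, so the numbers were not taken to pair the arrays. With the replicate block, which also compares within slide columns, 10 miRNAs were called, and miR-107 (−0.37, limma adjusted p = 0.457) and miR-103 (−0.27, limma adjusted p = 0.669) were not among them; the mean of both stayed at −0.32 (exact sign-flip p = 0.125), an alternative chosen after seeing the data. Low signal limits the dimmer miR-103 probe, which was detected on 4 of 8 arrays.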

Other observations

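Of 320 member spots over the 8 arrays, 16 were dropped as outliers. On diabetic 2, 1 spot of the dimmer miR-107 probe, A_54_P1421, read 171.0, while the other 9 spots of that probe read 25.1 to 35.02. With outlier spots kept, the log2 difference of miR-107 was −0.34 (limma adjusted p = 0.514), against −0.37 without them.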
